A study of Homo sapiens with 6 samples.

Results

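Transcripts of 10 genes of arginine synthesis and polyamine metabolism were followed in U87 cells, a human glioblastoma line, with and without a dominant negative form of the endoplasmic reticulum stress sensor IRE1alpha. The genes were taken by symbol: ASS1, ASL, ARG2, OAT, ODC1, AZIN1, AMD1, SRM, SMS and SAT1. They held 16 of the 22277 probe sets of the array, a probe set being a group of short oligonucleotides that reads 1 transcript, and 10 of the 11963 genes that could be named. A further probe set is annotated to SAT1 and to a second gene and was left out. The genes were put together with earlier results of these arrays known, among them the fall of ASS1, so the group differences of the 10 genes are given as a description and carry no p-value.

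The series held 6 arrays with 1 sample each. In 3 samples the cells expressed the dominant negative transgene of IRE1alpha (IRE1dn), and in 3 they carried the empty plasmid (ctrl). All 6 came from the same parental line and were grown for 16 h in medium with 10% fetal serum and glutamine before total RNA was taken. The labels name a single clone for the IRE1dn cells and speak of clones for the control cells, so a difference between the groups cannot be told apart from a difference between clones. They do not say whether replicates were separate cultures, and the spread between arrays may therefore be technical.

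Arginine is made from citrulline in consecutive steps, first by argininosuccinate synthase (ASS1), which joins citrulline to aspartate, and then by argininosuccinate lyase (ASL). Arginase splits arginine into urea and ornithine, and ornithine is either turned by ornithine aminotransferase (OAT) toward glutamate and proline or decarboxylated by ornithine decarboxylase (ODC1) to putrescine, the first polyamine. Spermidine and spermine are then built by adding aminopropyl groups from decarboxylated S-adenosylmethionine, and the polyamines bind nucleic acids and are needed for growth. ODC1 protein is short-lived because antizymes steer it to the proteasome, and loss of ASS1 expression is known from several tumour types, whose cells then depend on arginine from outside.

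Signals were scaled so that the trimmed mean was 100.03 units on every array, and array medians lay between 18.4 and 21.03 units, so a change shared by all transcripts would not be seen. Of 7178 genes with a mean above 13.0 units, the filter level, 2468 passed the threshold of an adjusted p of 0.05 in limma. Control arrays were the more variable, with a median SD over genes of 0.29 against 0.17 in IRE1dn on the log2 scale. Of 7 glioma line markers, VIM averaged 2787 units in controls and 3825 in IRE1dn. CD44 averaged 1663 and 1669 units in its brightest probe set, and 3 of its 8 were called lower, by log2 changes of -0.81 to -0.67. NES reached 44.9 units. OLIG2 was dim, with 15.1, 24.9 and 9.20 units in controls and 2.34, 3.45 and 4.455 in IRE1dn. In a fit of single probe sets it was called lower (-1.74, SE 0.42), while its other probe set, dimmer still, changed by 0.14. GFAP, S100B and SOX2 stayed under the filter level. Markers of immune, endothelial, epithelial and oligodendrocyte cells summed to between 31.7 and 42.1 units in controls and between 22.9 and 27.1 in IRE1dn over 6 genes, none of them at 0. Their means moved both ways from controls to IRE1dn. PECAM1 went from 12.1 to 4.51 units, EPCAM from 9.74 to 2.57, MBP from 7.87 to 4.53 and PTPRC from 3.36 to 2.535. KRT18 went from 3.39 to 8.37 and VWF from 1.41 to 2.73. EPCAM was called lower in the fit of single probe sets (-1.40, SE 0.35). In bulk samples, fewer cells of a type and less RNA per cell cannot be told apart.

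**Figure D1:**
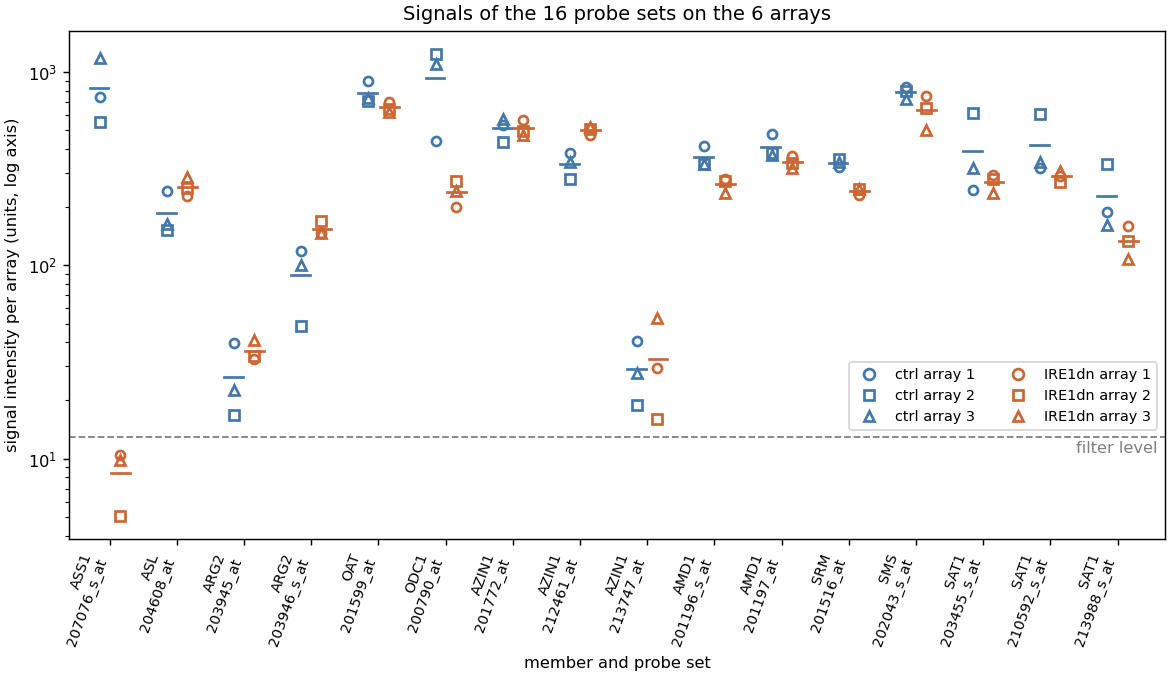
Signal intensity (log axis, units) of each of the 16 probe sets on each array, with controls in blue, IRE1dn in orange, a symbol for each array number and a bar at the mean of each group of 3. The 3 IRE1dn signals of ASS1 lie under the dashed filter level of 13.0 units while its control signals start at 550.5 units, and those of ODC1 lie between 199 and 272 units, below all control signals.

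Across the 10 genes the log2 changes ran from -6.31 in ASS1, whose IRE1dn signals lay under the filter level, to 0.87 in ARG2. The smallest in size was 0.01, in the brightest probe set of AZIN1. In the fit over all genes 4 of the 10 passed the threshold, ASS1, ODC1 and SRM lower and ARG2 higher in IRE1dn, against 34.4% of all genes tested. The share of all genes was 17.9% for the higher and 16.5% for the lower direction, and the genes were chosen on this contrast, so nothing is read from the count. Their median log2 change was -0.29, beside 0.01 over all genes tested. Arrays of the groups did not overlap for 7 of the 10, against 50.2% of all genes tested. With each probe set taken by itself, in a fit over all 19064 with 1 gene symbol, 3 of the 16 were called lower, against 7.64% of all probe sets, and 1 was called higher, against 8.73% (16.4% in either direction). The groups did not overlap in 10 of the 16, against 34.9% of all probe sets. All 16 had means above the filter level, ASS1 only through its control arrays. The shares over all probe sets come from a fit without a filter and include dim probe sets. They are thus an unlike background for the 16, and nothing is read from these counts.

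Of the enzymes that make arginine, ASS1 was called lower and ASL was not called. ASS1, which carries out the rate-limiting step of arginine synthesis from citrulline, was read by 1 probe set, 207076_s_at. Its signal was 738, 550.5 and 1176 units in the controls and 10.4, 5.07 and 9.82 units in IRE1dn. Every IRE1dn array lay under the filter level, where a signal is not called present or absent, and every control lay far above it. The group means were 822 ± 321 and 8.43 ± 2.92 units (SD, n = 3 each), and the log2 change was -6.31 (SE 0.32). Because the IRE1dn signals may be mostly background, the ratio of 97.5 between the means is imprecise, and the control mean alone was 63.3 times the filter level. The size of the log2 change depended on the pseudocount added before the logarithm and was -5.04 with 16 units. The call was kept in all 16 alternatives, which included leaving out each array. The RefSeq table lists 14 pseudogenes named for ASS1, and probe sets of the s_at type can bind related transcripts, so signal from such copies cannot be separated here.

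The RefSeq promoter table (GRCh38.p14) gives 2 transcript starts for ASS1. The 100 bases before the second start, chr9:130444861-130444960 on the plus strand, are shown because they hold an E-box and a TATA motif before a start of the member that changed most. Both motifs are in capitals, the TATA motif matching on both strands.
ASS1 second start: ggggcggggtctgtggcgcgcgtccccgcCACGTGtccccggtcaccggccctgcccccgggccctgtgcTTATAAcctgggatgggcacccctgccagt

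ASL, which releases arginine and fumarate from argininosuccinate, measured 241, 152 and 165 units in controls and 228, 252 and 286 in IRE1dn (probe set 204608_at). The groups overlapped through control array 1, whose signal exceeded that of IRE1dn array 1. Its log2 change was 0.48 (SE 0.21) and did not pass the threshold, except without control array 1 (0.68) or with array weights (0.55). ASS1 and ASL thus had log2 changes of opposite sign on the same arrays.

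ARG2, the mitochondrial arginase, was the 1 member called higher. Its brighter probe set, 203946_s_at, measured 118, 48.6 and 100.4 units in controls and 146, 170 and 148 in IRE1dn. The IRE1dn arrays lay close together and all above the controls, among which control array 2 was the lowest. The log2 change was 0.87 (SE 0.30). The dimmer probe set, 203945_at, measured 39.5, 16.8 and 22.6 units in controls and 32.6, 34.0 and 41.1 in IRE1dn, with overlapping groups and a log2 change of 0.50 (SE 0.33). The ARG2 call was kept in 7 of 16 alternatives: it ended without control array 2, where the log2 change was 0.49, without any single IRE1dn array (0.80 to 0.91), with no filter, with quantile normalization, with equal medians, with the mean of the gene's probe sets and without an intensity trend, and it was not made in the fit of single probe sets.

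A single ARG2 start is listed, and the 180 bases before it, chr14:67619740-67619919 on the plus strand, are shown because they hold 2 copies of the cyclic AMP response element (CRE), given in capitals.
ARG2: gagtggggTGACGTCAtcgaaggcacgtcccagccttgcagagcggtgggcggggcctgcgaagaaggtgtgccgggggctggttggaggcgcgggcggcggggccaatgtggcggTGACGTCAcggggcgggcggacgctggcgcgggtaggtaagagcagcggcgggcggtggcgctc

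OAT, the mitochondrial enzyme that moves ornithine toward glutamate semialdehyde, differed little. Probe set 201599_at measured 898, 706 and 733 units in controls and 703, 644 and 620 in IRE1dn. The highest IRE1dn array lay just under the lowest control, so the groups did not overlap, but the log2 change of -0.24 (SE 0.15) did not pass the threshold.

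Among the polyamine enzymes ODC1 had the largest change. ODC1 makes putrescine from ornithine and is the first regulated enzyme of the pathway. Its probe set 200790_at measured 441, 1234 and 1104 units in controls and 199, 272 and 243 in IRE1dn. All IRE1dn arrays lay below all controls, and control array 1 stood well under the other two controls. Means were 926 ± 425 and 238 ± 36.6 units (SD, n = 3 each), a ratio of 3.89, and the log2 change was -1.83 (SE 0.34). ODC1 kept its call in all 16 alternatives, with changes from -1.55 without control array 2 to -2.29 without control array 1.

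SRM, spermidine synthase, differed by a smaller but tightly measured amount. Probe set 201516_at measured 322, 354 and 341 units in controls and 229.8, 247 and 249.6 in IRE1dn. Each group spanned less than 1.10 times from its lowest to its highest array, and the groups did not overlap. SRM changed by -0.48 on the log2 scale (SE 0.15), a ratio of 1.40 between the means. The size hardly moved over the alternatives, from -0.55 to -0.44. The call nevertheless ended without control array 2 (-0.45) or without any single IRE1dn array (-0.50 to -0.44).

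The stretches before the starts of ODC1 and SRM are shown because each gene has an E-box, the motif CACGTG bound by MYC and MAX dimers, before 1 of its listed starts. For ODC1 the table gives 2 starts: the 60 bases before the first, chr2:10448328-10448387, hold a TATA motif, and the 60 before the second, chr2:10448013-10448072, hold the E-box. For SRM the 220 bases before the only start, chr1:11060019-11060238, are given. All 3 are read on the minus strand, with these motifs in capitals and GC boxes left in lower case.
ODC1 first start: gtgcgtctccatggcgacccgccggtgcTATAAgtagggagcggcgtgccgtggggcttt
ODC1 second start: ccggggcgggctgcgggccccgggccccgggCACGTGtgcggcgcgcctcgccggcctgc
SRM: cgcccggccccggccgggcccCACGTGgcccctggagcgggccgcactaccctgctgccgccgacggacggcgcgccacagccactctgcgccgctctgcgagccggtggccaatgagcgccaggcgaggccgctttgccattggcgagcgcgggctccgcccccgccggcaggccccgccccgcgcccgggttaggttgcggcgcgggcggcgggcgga

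The other enzymes that build polyamines gave values in the same direction without passing the threshold. AMD1 decarboxylates S-adenosylmethionine and so supplies the aminopropyl groups. Its probe set 201197_at measured 479.9, 380.5 and 373 units in controls and 367, 337 and 319 in IRE1dn, and its second probe set, 201196_s_at, 416, 335 and 336 against 278, 274.5 and 237. In both probe sets the groups did not overlap, with log2 changes of -0.26 (SE 0.16) and -0.45 (SE 0.16). SMS, spermine synthase, measured 837, 799.8 and 724 units in controls and 753, 650.0 and 501 in IRE1dn. It was the 1 member that varied more among IRE1dn than among control arrays, the groups overlapped, and the log2 change was -0.33 (SE 0.18).

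AZIN1, the antizyme inhibitor, resembles ODC1 in sequence but lacks its activity and frees ODC1 from antizyme. Its 3 probe sets did not give the same picture. The brightest, 201772_at, measured 529, 434 and 569 units in controls and 564, 496 and 474.5 in IRE1dn, with overlapping groups and a log2 change of 0.01 (SE 0.16). Probe set 212461_at measured 379.6, 278 and 343 units in controls and 474.5, 505 and 518 in IRE1dn. All its IRE1dn arrays lay above the controls, and it was called higher in the fit of single probe sets, with a log2 change of 0.59 (SE 0.16). The third, 213747_at, was dim, with 40.8, 18.9 and 27.6 units in controls and 29.5, 16.0 and 53.1 in IRE1dn, and changed by 0.08 (SE 0.44). No direction is given for AZIN1 as a gene: its sign turned in 3 of 16 alternatives.

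SAT1 adds acetyl groups to spermidine and spermine, the first step of their breakdown and export. Its 3 probe sets were all lower in value in IRE1dn and none was called. The one used for the gene, 210592_s_at, measured 320.4, 603 and 341 units in controls and 289.7, 269 and 307 in IRE1dn, a log2 change of -0.48 (SE 0.24). Probe set 203455_s_at measured 247, 611 and 319.6 units in controls against 292, 280.1 and 236.5, with overlapping groups and a change of -0.44 (SE 0.29). Probe set 213988_s_at measured 189.6, 335 and 162 units in controls against 159.6, 133 and 108, a change of -0.72 (SE 0.27). Control array 2 was the highest array in all 3 probe sets. Without it the SAT1 change was -0.20, and only array weights led to a call (-0.68).

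**Figure D2:**
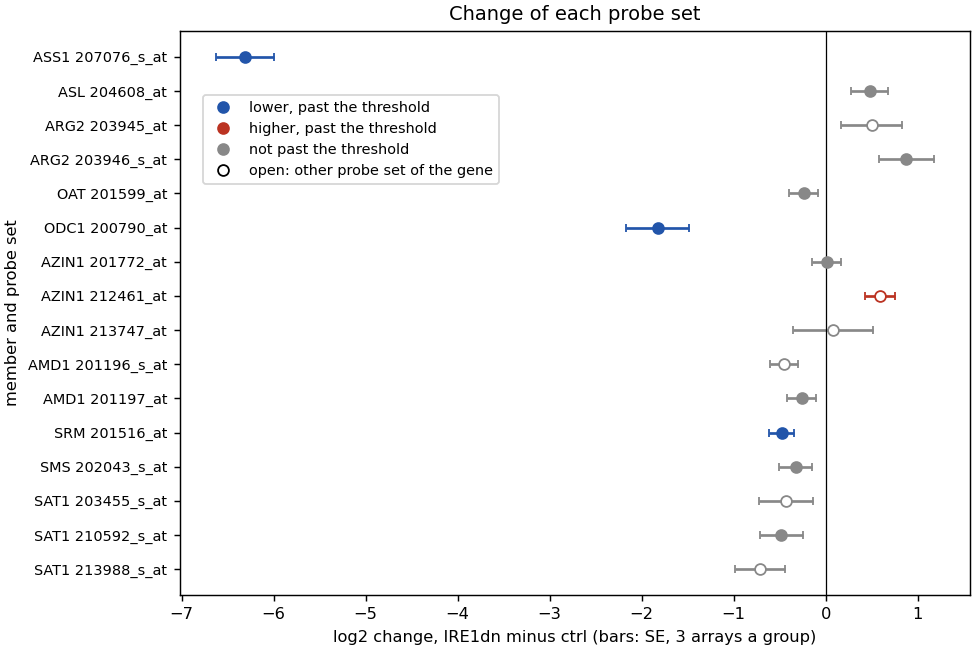
Log2 change (IRE1dn minus ctrl, bars give the SE, 3 arrays per group) of each probe set in the fit over 19064 probe sets, with blue for lower and red for higher calls, grey for none, and open symbols for probe sets not used for the gene. ASS1 (-6.31) and ODC1 (-1.83) stand to the left of all others, which lie between -0.72 and 0.87.

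Within the groups, the control arrays were the more variable for most of these genes, as they were over all genes. In 9 of the 10 genes the log2 SD was larger in controls than in IRE1dn, against 70.9% of all genes. For SRM the SDs were nearly equal (0.068 and 0.064), and nothing is read from the count. ODC1 had a control SD of 0.81 on the log2 scale, ARG2 of 0.67, ASS1 of 0.55 and SAT1 of 0.50, against 0.07 for SRM. Control array 2 was the lowest control in 9 of the 16 probe sets and control array 1 the highest in 9. The array with the most ODC1 and SAT1 signal, control array 2, had the least ASS1, ASL and ARG2 signal among controls. That array also had the most signal for ASNS, asparagine synthetase (584 units against 152 and 222.5 in the other controls), and for SLC3A2, a subunit of amino acid exchangers (322 against 74.9 and 174). The part of these differences in the results was not tested.

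Genes of the whole table with the pattern closest to ASS1 and to ODC1, the members with the largest changes, were found by the root mean square difference of centred log2 signals over the 6 arrays. For ASS1 they were the channel AQP9 (difference 0.56), the bradykinin receptor BDKRB1 (0.75) and PNMA2 (0.75). AQP9 measured 169.7 to 177 units in controls and 0.473 to 1.86 in IRE1dn. For ODC1 the closest were HBEGF, a ligand of the EGF receptor (0.20), FJX1 (0.22) and GPRC5A (0.24). HBEGF measured 68.7, 223 and 214 units in controls and 34.7, 33.9 and 34.6 in IRE1dn. These genes were picked for their likeness on all 6 arrays.

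The promoter table gave 13 transcript starts for 9 of the members. The 250 bases before each start were searched on both strands for the E-box CACGTG, the GC box GGGCGG, the TATA motif TATAA, the CRE TGACGTCA and the unfolded protein response element TGACGTGG, and matches were allowed to overlap. An E-box stood before 3 of the 13 starts, at -71 to -66 in ASS1 (second start), -29 to -24 in ODC1 (second start) and -199 to -194 in SRM. The other 6 genes with a listed start had none. Nothing is read from which members hold the motif, since they were chosen on this contrast. Of all 35116 listed starts 6.34% held an E-box, and 7.73% of the 27305 genes listed had at least 1 start that did. A GC box preceded 12 of the 13 starts, against 42.6% of all starts, and a TATA motif 4 of 13 against 18.9%. The starts are not all separate promoters. AMD1 starts 1 and 3, at chr6:110874785 and chr6:110874784, are neighbouring bases, so the same GC box and TATA motif are counted for both. CRE copies were found at -172 to -165 and -64 to -57 in ARG2, against 1.65% of all starts with a CRE. No member start held the unfolded protein response element, which 0.612% of all starts did. A match is a description of the letters and not a measured site.

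**Figure D3:**
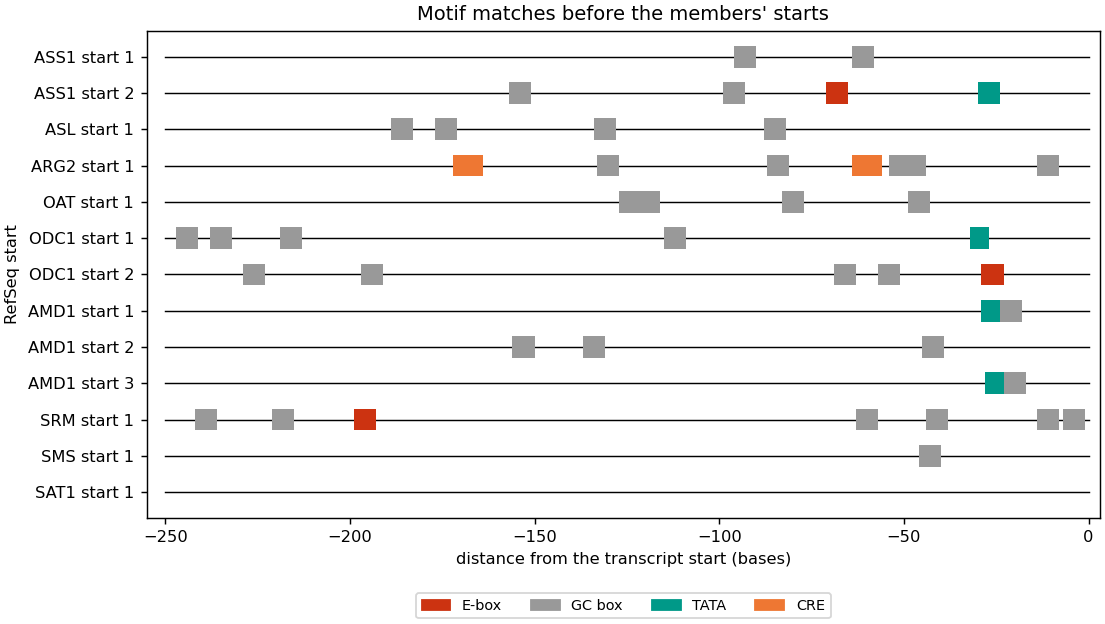
Matches to the E-box (red), GC box (grey), TATA motif (green) and CRE (orange) in the 250 bases before the 13 listed starts of 9 members, with the distance from the start on the x axis. E-boxes appear in 3 of 13 rows and CRE copies in the ARG2 row only.

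Genes around arginine use were described from a wider list. Of 17 listed genes of the urea cycle, arginine transport and arginine use, 14 were on the array and 6 were tested, of which 1 rose and 0 fell in limma (2 and 0 at an unadjusted p under 0.05). That is 16.7% called, against 34.4% of all genes in either direction and 17.9% higher. At an unadjusted p under 0.05 in limma, 1720 of all 7178 genes tested were higher and 1584 lower. Their median log2 change was 0.44, beside 0.01 over all genes. The gene that rose was SLC7A1, the main carrier of arginine into many cells, from 399.5 ± 103 units in controls to 633 ± 27.0 (SD, n = 3 each), with a log2 change of 0.70 (SE 0.20) and an adjusted p of 0.024 in limma. Among its 5 probe sets only this one was called, and the call ended with the mean of them (0.22) or without any single IRE1dn array (0.66 to 0.71). DDAH1, which breaks down methylated arginine, was higher on every IRE1dn array without passing (0.63, SE 0.23, limma adjusted p = 0.056). The liver arginase ARG1, the carrier SLC7A2 and the inducible nitric oxide synthase NOS2 lay below 4.30 units on every array and were not tested.

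Among 14 listed genes of ornithine, proline, glutamate and aspartate metabolism, 12 were on the array and 10 were tested, of which 2 rose and 2 fell, with a median of -0.27. That is 40% called, near the 34.4% of all genes. SLC25A12, a mitochondrial carrier that exports aspartate, the second substrate of ASS1, fell from a control mean of 154 ± 20.1 units to 90.1 ± 1.89 (log2 -0.76, SE 0.18, adjusted p of 0.010 in limma) and kept its call in all 16 alternatives. ASNS, which uses aspartate to make asparagine, fell from a control mean of 319 ± 232 units to 116 ± 7.10 (log2 -1.21, SE 0.40, adjusted p of 0.041 in limma). Its call ended without any single IRE1dn array (-1.25 to -1.17), with no filter and without an intensity trend, and it was kept at -0.66 without control array 2, the highest control. PYCR1, which completes proline synthesis, rose from 72.1 ± 4.16 to 114 ± 8.83 units (0.65, SE 0.18, limma adjusted p = 0.020), and its call ended without any single IRE1dn array (0.60 to 0.71). ALDH18A1, the enzyme before it, changed by 0.38 (SE 0.18, limma adjusted p = 0.13). GLUL, glutamine synthetase, measured 23.1, 33.3 and 228 units in controls and 335, 264.5 and 257 in IRE1dn, and the log2 difference was 2.29 (SE 0.66, adjusted p of 0.025 in limma). Its size rested on control array 3, without which it was 3.27. The call ended without control array 1 (1.67), without control array 2 (1.91) or without any single IRE1dn array (2.17 to 2.36).

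The other polyamine genes, with the hypusine and methionine salvage enzymes, gave 5 falls and 0 rises among 16 tested of 22 listed (6 and 0 at an unadjusted p under 0.05). The median was -0.21, and 31.2% of the tested genes were called, all of them lower. Of all genes 34.4% were called in either direction and 16.5% lower. At an unadjusted p under 0.05 in limma, 1584 of all 7178 genes tested were lower and 1720 higher. The list was written with earlier results known, so nothing is read from these counts. ATP13A3, a polyamine transporter, fell from a control mean of 433 ± 186 units to 207 ± 47.3 (log2 -0.999, SE 0.29, adjusted p of 0.024 in limma). Both enzymes that make hypusine from spermidine on the translation factor eIF5A were called lower. DHPS had a log2 change of -0.63 (SE 0.21) and DOHH of -0.91 (SE 0.30), each with a limma adjusted p of 0.044. DOHH was dim, with 18.2, 30.9 and 36.4 units in controls and 16.5, 12.4 and 12.9 in IRE1dn. IRE1dn arrays 2 and 3 thus lay under the filter level. The other DOHH probe sets, dimmer still, changed by 0.21 and -0.78. No DOHH probe set was called in the fit of single probe sets. MAT2B, the regulatory subunit of methionine adenosyltransferase, fell by 0.71 (SE 0.20, limma adjusted p = 0.021), and APIP, a methionine salvage enzyme, fell by 0.48 (SE 0.16, limma adjusted p = 0.042). None of these 5 calls survived every array left out. Those of MAT2B (-0.74 to -0.64) and APIP (-0.50 to -0.46) ended without any single IRE1dn array, and that of APIP also without control array 1 (-0.39). ATP13A3 lost its call without control array 2 (-0.67) or IRE1dn arrays 2 or 3 (-0.90 and -0.92), DHPS without control arrays 1 or 3 (-0.66 and -0.48) or IRE1dn arrays 2 or 3 (-0.57 and -0.54), and DOHH without any array except control array 1 (-1.02 to -0.71). Other settings also ended calls: no filter those of DHPS and DOHH, no intensity trend those of DHPS and APIP, and the mean of probe sets that of ATP13A3. The antizymes OAZ1 and OAZ2, which bind ODC1, changed by -0.16 (SE 0.12, limma adjusted p = 0.33) and -0.27 (SE 0.20, limma adjusted p = 0.32). The other OAZ1 probe set was level (0.00, SE 0.17), and OAZ1 was called lower with quantile normalization (-0.30). In the other OAZ2 probe set the groups did not overlap, and its change of -0.68 (SE 0.23) was not called. The spermine oxidase SMOX changed by -0.14 (SE 0.22, limma adjusted p = 0.66), and MAT2A, the catalytic subunit beside MAT2B, by 0.09 (SE 0.16, limma adjusted p = 0.72). EIF5A itself changed by -0.61 (SE 0.28, limma adjusted p = 0.12), but its other two probe sets were higher in value, and 1 of them was called higher in the fit of single probe sets (0.67, SE 0.19, limma adjusted p = 0.040). MTAP, which salvages the by-product of spermidine and spermine synthesis, had no signal above 6.56 units and was not tested.

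**Figure D4:**
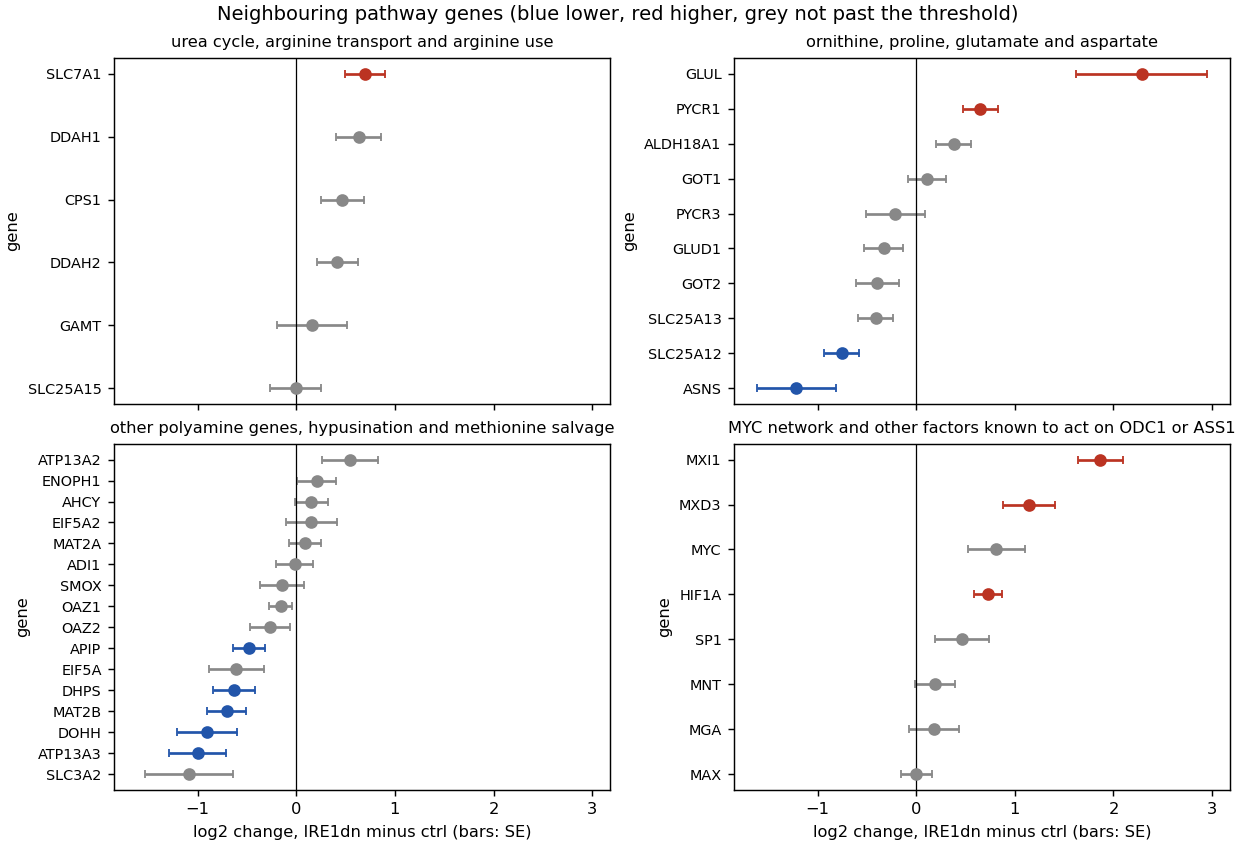
Log2 change (IRE1dn minus ctrl, bars give the SE) of the tested genes in 4 neighbouring lists, with blue for falls, red for rises and grey for genes that did not pass the threshold. Calls in the polyamine panel lie to the left of 0 and those in the MYC panel to the right. Of all genes tested 16.5% were called lower and 17.9% higher, and nothing is read from the sides.

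Factors known to act on ODC1 or ASS1 were listed as well. Of 12 genes, 11 were on the array and 8 were tested, of which 3 rose and 0 fell in limma (4 and 0 at an unadjusted p under 0.05), with a median of 0.60. That is 37.5% called, all of them higher, against 34.4% of all genes in either direction and 17.9% higher. At an unadjusted p under 0.05 in limma, 1720 of all 7178 genes tested were higher and 1584 lower. This list too was written with earlier results known, and nothing is read from the counts. MXI1, a MAX partner that opposes MYC, rose from 70.2 ± 18.2 to 258 ± 41.0 units (1.87, SE 0.23, limma adjusted p = 0.00043). MXD3, of the same family, rose from 27.4 ± 9.69 to 60.8 ± 6.52 units (1.14, SE 0.26, limma adjusted p = 0.0094). HIF1A, the hypoxia-inducible factor subunit, rose from 1577 ± 57.6 to 2626 ± 363 units (0.73, SE 0.14, limma adjusted p = 0.0041). Their calls were kept in every alternative in which they were tested. MYC, a known activator of ODC1, measured 152, 287 and 338 units in controls and 347, 502 and 465 in IRE1dn. The groups did not overlap, and the log2 change of 0.81 (SE 0.29) did not pass (limma adjusted p = 0.051). It did so in 6 of 16 alternatives, among them that without control array 3 (1.04). MAX was level in its brightest probe set (log2 change 0.00, SE 0.16), while its 4 dimmer ones were lower in value without a call.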

How the data were processed

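RNA of 6 samples, 3 per group, was measured on Affymetrix arrays with 22277 probe sets. Per the submitters' processing notes the deposited signal intensities, on a linear scale, were made with GCOS 1.2. How probes were summarised and background treated is not given in the sources used here. The logarithm to base 2 was taken after adding 1.75 units, the 20th percentile of all signals. Of the probe sets 19064 had 1 gene symbol in the platform annotation, 19052 of them updated through GRCh38.p14 RefSeq identifiers. Each gene was read by its brightest probe set on average. The 7178 genes above the 40th percentile were fitted with limma 3.58.1 under R 4.3.3 (eBayes with an intensity trend, no covariate, two-sided, Benjamini-Hochberg). Single probe sets were fitted without a filter. SEs are those of limma. The test was checked on simulated data.

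The 10 members and all lists were chosen with earlier results of these data known. Named were all members, called genes of 4 lists (up to 6 each), 14 genes set in the rule, and the 3 nearest patterns of each of 2 members. Other names, such as DDAH1, SLC3A2 and MAX, were chosen after their values were seen. Alternatives were other pseudocounts, filters, normalizations, probe set choices and variance models, a block for the replicate number, and leaving out each array. The number of arrays limits the precision.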

Additional observations from a re-analysis of the deposited data

How the results depend on the processing

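The number of genes called ranged from 1838 with a 60th percentile filter to 2841 with array weights, and from 1446 to 2671 with 1 array left out (1377 to 3216 single probe sets). The lower calls of ASS1 and ODC1 were kept in all 16 alternatives. The count of members called higher was 2 with array weights and 0 with equal medians, quantile normalization, the mean of probe sets, no filter and no intensity trend, and 0 to 2 with 1 array left out. The count called lower was 4 with array weights and 2 to 3 with 1 array left out. In the urea cycle list 2 genes rose with array weights, 0 with the mean of probe sets and 0 to 1 with 1 array left out. In the ornithine list 1 gene fell with no filter and 1 without an intensity trend, and 0 to 2 rose and 1 to 2 fell with 1 array left out. In the polyamine list 3 genes fell with the mean of probe sets, no filter or no intensity trend, 6 with quantile normalization or array weights, and 0 to 4 with 1 array left out. In the MYC list 3 to 4 rose. The cause of these moves was not tested. Of 475 recomputed changes of single genes, 406 kept their side of the threshold, 58 lost a call and 11 gained one. No called change turned its sign. Changes called in neither setting turned it in 5 cases, for AZIN1 (-0.06 with equal medians, -0.10 without control array 2 and -0.06 without IRE1dn array 1) and, with the mean of probe sets, for MAT2A (-0.08) and EIF5A (0.10).

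Same-numbered arrays showed no sign of pairing: correlations of same-numbered deviations were -0.10, 0.06 and 0.03. Those of differently numbered arrays lay between -0.121 and 0.075. With 3 arrays a group such values cannot settle whether same-numbered samples were prepared together. With the replicate block 2276 genes were called, 1 member higher and 2 lower, and 2 polyamine genes fell instead of 5. The calls that ended with the block were those of SRM, DHPS, DOHH and APIP.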
